A study of Mus musculus with 14 samples.

Results

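The comparison covered 6 of the 14 arrays of the study, namely 3 arrays of lungs from Atxn1 knockout mice (genotype Atxn1 -/-) and 3 arrays of lungs from the wild-type mice collected as their controls. The arrays were taken by their titles, and all 21212 probe sets of the Affymetrix mouse Gene ST 1.0 array entered the comparison. The mice were 6 days old, on the C57BL/6J strain, and came from crosses between Atxn1 heterozygotes. Dissected lungs were frozen, and 100 ng of total RNA was used per array. The other 8 arrays were 4 Atxn1l knockouts (Atxn1L -/-) and 4 wild types of a separate set of intercrosses at the same age and on the same strain. The deletion is in the germ line of whole animals, and the labels name neither the deleted part of the gene nor whether tissue was pooled. Which wild type belongs to which knockout is not stated.

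Ataxin-1, the product of Atxn1, is a chromatin-associated protein that is best known because an expanded glutamine tract in it causes spinocerebellar ataxia. Together with its paralogue ataxin-1-like it binds Capicua, the product of Cic, a repressor that sits on genes of receptor tyrosine kinase signalling such as the PEA3 group of ETS factors. At the age studied the mouse lung forms septa that divide its airspaces into alveoli, a process that uses Hedgehog, platelet-derived growth factor and fibroblast growth factor signals and remodelling of the matrix. Interferons, which return below, act through receptors that activate STAT and IRF factors, and these bind short elements in the promoters of antiviral and antigen presentation genes.

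No probe set passed the test between the Atxn1 knockouts and their wild types. With limma's moderated test and Benjamini-Hochberg adjustment over the 21212 probe sets, 0 were called at an adjusted p under 0.05, a background of 0%, and the smallest adjusted p was 0.9999. Without adjustment, 258 (1.22%) had p below 0.05, of which 159 (0.75% of all) had the higher mean in the knockouts and 99 (0.467%) the lower. About 1061 would be expected below 0.05 by chance, so 258 was not a surplus. All 3 knockouts lay above all 3 wild types for 605 probe sets (2.85%) and below them for 402 (1.9%), so that 4.75% did not overlap between the groups. With no difference between the groups, a share of 0.1 would be expected not to overlap, which is above the 4.75% found. The separated probe sets differed little, by a median of 0.09 on the log2 scale where the knockouts were higher and 0.10 where they were lower. A size over 0.5 was reached by 7 of those that were higher and by 1 of those that were lower. With 3 arrays against 3 a permutation test of a single gene cannot give a two-sided p below 0.1, so no gene can be called by that route either.

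The precision of the comparison is part of the result. The 95% interval of the fitted log2 change reached a median of 0.17 to either side of the estimate and stayed within 0.5 on either side of 0 for 20485 probe sets (96.6%). It stayed within 1 for 21106 probe sets (99.5%), and 7 probe sets had a fitted change over 1. For most genes the arrays therefore bound the change, and for the few with wide intervals they do not. The spread within groups was unequal, with a median SD of 0.06 among the knockouts and 0.10 among the wild types, and the wild-type SD was the larger one for 75.9% of probe sets.

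Wild type 1 stood apart from the other 5 arrays. Its levels had an SD of 1.78 across probe sets against 1.84 to 1.87 on the others, and it lay at 24.7 on a first principal component that held 46.7% of the variance and on which the others ran from -10.5 to 2.48. It was the highest of the 6 arrays for 41.0% of probe sets. Xist, the RNA of the inactive X chromosome, was at 6.83 on knockout 1, 6.89 on wild type 1 and 6.94 on wild type 2, and at 12.97 on knockout 2, 13.07 on knockout 3 and 13.04 on wild type 3, so the groups were not balanced for it. The mean over Xist and the Y-linked genes Kdm5d, Uty and Eif2s3y went the opposite way. It was 9.36, 9.16 and 9.51 on the arrays of low Xist and 7.76, 7.77 and 7.88 on those of high Xist. This is a male pattern on knockout 1 and wild types 1 and 2, and a female pattern on the other arrays. Alveolar and endothelial markers of lung were high in the wild types. In their mean levels 12 of 14 alveolar type 2 markers, 11 of 13 alveolar type 1 markers and 13 of 20 endothelial markers were in the top 10% of all probe sets, while none of the 7 thyroid and none of the 12 oesophageal markers were. Not every list divided this way. Only 1 of 15 ciliated and 0 of 19 macrophage markers were in the top 10%, and 2 of 14 heart muscle markers were.

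**Figure D1:**
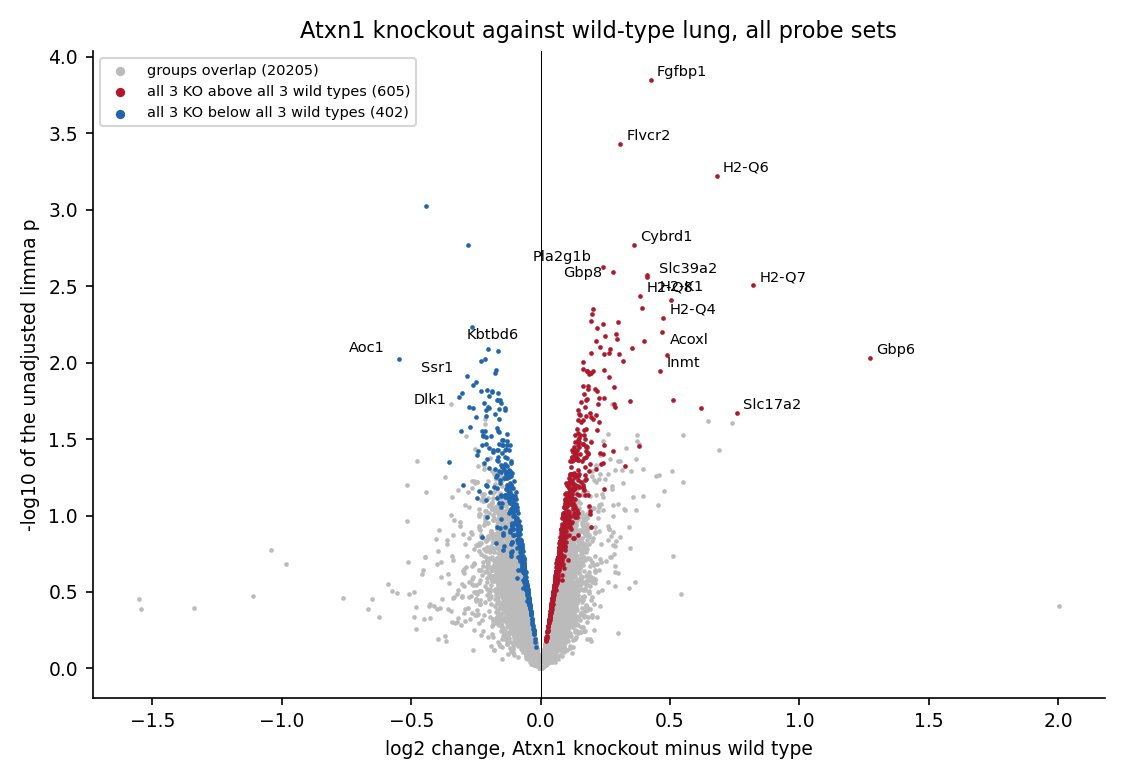
Each point is 1 of the 21212 probe sets, with the log2 change of the Atxn1 knockouts against the wild types on the x axis and -log10 of the unadjusted limma p on the y axis. Red and blue points are the 605 and 402 probe sets whose groups do not overlap, the labelled points are genes named in the text, and the grey point farthest right is Xist.

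The targeted gene itself gave no contrast on these arrays. Atxn1 was at log2 levels of 11.02, 10.99 and 11.04 in knockouts 1 to 3 and 10.92, 11.14 and 10.97 in wild types 1 to 3. The knockout values lay inside the range of the wild types, and the log2 change was 0.01 (SE 0.07), whose sign turned under several settings. The probes of this set may lie outside the deleted part of the gene, in which case they check nothing about the labels. On the arrays labelled Atxn1l knockout the Atxn1l probe set was lower by 2.58 on the log2 scale.

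The paralogue and the partner of ataxin-1 had overlapping levels in the groups. Atxn1l was at 10.33, 10.40 and 10.42 in the knockouts and 10.40, 10.32 and 10.39 in the wild types, a change of 0.02 (SE 0.05) with a 95% interval from -0.11 to 0.14. Cic, which encodes Capicua, was at 10.53, 10.55 and 10.56 against 10.57, 10.44 and 10.48, a change of 0.05 (SE 0.05). Neither gene separated the groups. Of the 12 measured genes that encode ataxin-1 or proteins that bind it, 9 had a change above 0, the median was 0.02, or -0.00 without knockout 3, and none separated the groups in either direction. The largest of them was Rora, a nuclear receptor, at 0.09 (SE 0.07).

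The genes that Capicua is known to repress and the feedback genes of ERK signalling were all slightly higher in the mean of the knockouts, and none was called. All 21 measured members had a change above 0, against 47.3% of all probe sets, and their median was 0.05, or 0.08 without wild type 1, against -0.00 over all probe sets. The share of probe sets above 0 was 57.0% with the dimmest 40% left out and 57.9% without wild type 1. The mean level of the list was 10.49 to 10.52 in the knockouts and 10.43 to 10.46 in the wild types. In 3 of the 21 all knockouts lay above all wild types, beside the 2.85% of all probe sets that did. Dusp4, a phosphatase that switches off MAP kinases in the nucleus, was at 9.40, 9.48 and 9.61 in the knockouts and 9.25, 9.31 and 9.19 in the wild types, a change of 0.25 (SE 0.07). Etv5, a PEA3 factor made in alveolar type 2 cells, was at 11.27, 11.28 and 11.52 against 11.25, 11.26 and 11.18, a change of 0.13 in which knockouts 1 and 2 barely cleared the wild types. Spry1, a sprouty inhibitor of receptor tyrosine kinase signalling, was at 12.02, 12.04 and 12.10 against 11.89, 11.98 and 11.96, a change of 0.11.

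The other PEA3 factors overlapped between the groups. Etv1 was at 11.36, 11.23 and 11.53 in the knockouts and 11.24, 11.35 and 11.02 in the wild types. Etv4, which was called in the Atxn1l knockouts with a change of 0.48, was at 0.09 (SE 0.07) here, and the difference between the knockouts, -0.39, had an adjusted p of 0.865 in limma. The remaining members ran from 0.00 for Shc3 to 0.09 for Spred2, and included Dusp6 at 0.01, Spry2 at 0.05, Spry4 at 0.02, Ccnd1 at 0.01 and Myc at 0.04.

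Capicua is known to recognise octamers of the forms TGAATGAA, TGAATGGA, TCAATGAA and TCAATGGA, and the promoters were searched for them on both strands in the 250 bases before each RefSeq gene start of build GRCm38.p6. Of the 12 list members that matched a promoter, 4 held at least 1 octamer (Dusp6, Epha2, Spred3 and Spry2), against 3.71% of the 27025 genes with a promoter. The 150 bases before the starts of Dusp6 (chr10:99263081-99263230, plus strand) and Spry2 (chr14:105896820-105896969, minus strand) are shown because both are classical feedback inhibitors of ERK signalling that hold an octamer, which is in capitals and lies on the opposite strand in both.
Dusp6: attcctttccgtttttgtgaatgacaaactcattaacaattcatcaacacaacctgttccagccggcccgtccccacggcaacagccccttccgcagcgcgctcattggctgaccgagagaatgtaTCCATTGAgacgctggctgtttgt
Spry2: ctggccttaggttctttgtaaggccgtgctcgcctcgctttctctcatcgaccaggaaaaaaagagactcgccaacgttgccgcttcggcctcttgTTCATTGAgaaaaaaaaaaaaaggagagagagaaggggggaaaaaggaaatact
The levels of these octamer-bearing genes were close between the groups. Dusp6 was at 11.97, 11.96 and 11.97 in the knockouts and 11.87, 11.94 and 12.06 in the wild types. Spry2 was at 10.07, 10.02 and 10.04 against 9.97, 10.02 and 9.98, so that knockout 2 and wild type 2 met at the same rounded level. Of the 3 separated genes, Etv5 and Spry1 held none of these letters in the window, and Dusp4 had no matched promoter and was not searched.

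Interferon-inducible genes were higher in knockouts 2 and 3, with no member called. The interferon-induced GTPases of the Gbp and Irg families, which attack the vacuoles of intracellular microbes, had a change above 0 in 11 of 11 measured members with a median of 0.51. Their mean level was 9.11, 9.88 and 9.95 in knockouts 1 to 3 and 9.09, 9.10 and 9.12 in wild types 1 to 3. Knockout 1 thus sat with the wild types, and knockouts 2 and 3 stood apart from all of them. Knockout 2 lay above every wild type in 11 of 11 members and knockout 3 in 11 of 11, while knockout 1 did so in 2. Over all probe sets these shares were 15.4%, 15.1% and 15.1%. Without knockout 1 the median of the list was 0.77, and without knockout 2 or knockout 3 it was 0.38 and 0.32.

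Most of the GTPase promoters that could be searched carry the letters that interferon-activated factors are known to bind. The interferon-stimulated response element was searched in an exact form, and other forms of it were not searched. The form was GAAA, any 2 bases and GAAA again, on both strands of the same 250-base windows. It was present in 6 of the 7 GTPase genes with a matched promoter (Gbp2, Gbp3, Gbp5, Gbp7, Igtp and Irgm1), in 6 of 14 matched interferon-stimulated genes and in 2 of 18 matched genes of MHC class I and peptide loading (B2m and H2-T23), against 3.46% of the 27025 genes. Gbp4, Gbp6, Gbp8 and Iigp1 had no matched promoter and were not searched. The 150 bases before the start are shown for the GTPases Igtp (chr11:58199406-58199555, plus strand), Irgm1 (chr11:48871421-48871570, minus strand) and Gbp2 (chr3:142620513-142620662, plus strand) and for the class I light chain B2m (chr2:122147537-122147686, plus strand), with the matches in capitals.
Igtp: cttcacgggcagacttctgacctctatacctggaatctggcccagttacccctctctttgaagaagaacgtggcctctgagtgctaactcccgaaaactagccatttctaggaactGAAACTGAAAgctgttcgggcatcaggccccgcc
Irgm1: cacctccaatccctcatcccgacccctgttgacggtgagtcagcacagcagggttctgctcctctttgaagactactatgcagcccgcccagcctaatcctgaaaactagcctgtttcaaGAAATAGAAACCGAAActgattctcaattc
Gbp2: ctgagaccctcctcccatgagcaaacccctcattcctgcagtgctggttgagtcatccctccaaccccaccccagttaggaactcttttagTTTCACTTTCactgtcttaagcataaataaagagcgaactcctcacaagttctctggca
B2m: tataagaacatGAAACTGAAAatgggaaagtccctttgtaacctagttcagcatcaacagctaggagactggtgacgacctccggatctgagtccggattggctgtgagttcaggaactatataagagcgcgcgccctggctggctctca
The match in Igtp spans bases 34 to 25 before the start. Irgm1 holds 2 overlapping matches between bases 30 and 15, that of Gbp2 lies on the opposite strand from base 59 to base 50, and that of B2m is farther away, from base 139 to base 130. A match describes the letters only.

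By gene, the pattern of the 2 high knockouts repeated across the family. Igtp was at 8.76, 9.81 and 9.81 in the knockouts and 8.74, 8.74 and 8.82 in the wild types, a log2 change of 0.69 (SE 0.27). Irgm1, which controls the other Irg proteins, was at 9.84, 10.81 and 10.77 against 9.86, 9.97 and 9.93. Gbp2 was at 9.32, 10.12 and 10.21 against 9.36, 9.34 and 9.53. In each of these 3 genes knockout 1 lay at or near the wild types and the groups overlapped.

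Gbp6 had the largest change of all separated probe sets. It was at 8.25, 9.50 and 9.71 in the knockouts and 7.86, 8.08 and 7.71 in the wild types, 2.42-fold higher in the mean with a log2 change of 1.27 (SE 0.36). Gbp8 was the other of the 2 members, beside 2.85% of all probe sets, whose groups did not overlap, at 9.36, 9.53 and 9.47 against 9.13, 9.22 and 9.16, a change of 0.28 (SE 0.06). Gbp4, Ifi47, Gbp3, Gbp7 and Gbp5 had changes of 0.74, 0.65, 0.51, 0.45 and 0.29, and Iigp1 was nearly level at 0.05. Gbp genes are close copies of one another, and probes can be shared among them, so the split of signal between members is uncertain.

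**Figure D2:**
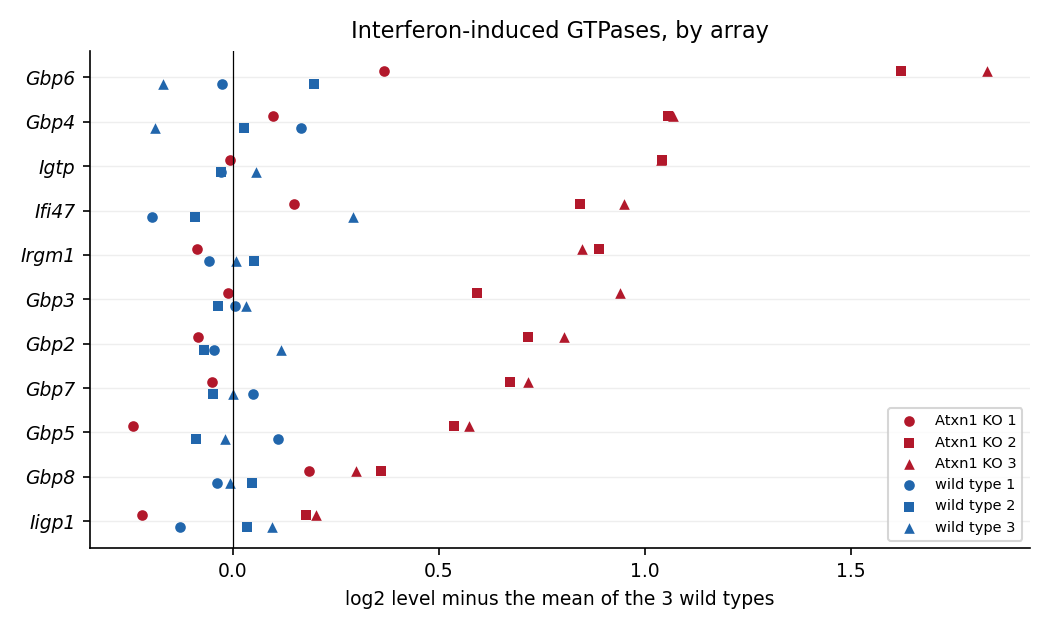
Log2 level of each of the 11 measured interferon-induced GTPases on each array, minus the mean of the 3 wild types for that gene (x axis, log2 units), with knockouts in red and wild types in blue. Knockouts 2 and 3 lie to the right of all wild types in every gene, and knockout 1 lies above all wild types in Gbp6 and Gbp8 alone and below all of them in 5 genes.

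Other interferon-stimulated genes, which encode antiviral effectors and sensors, were also highest in the mean on knockouts 3 and 2, at smaller size. Of 20 measured members 17 had a change above 0, with a median of 0.15, and the list means were 9.03, 9.24 and 9.37 in the knockouts and 9.09, 9.01 and 9.03 in the wild types. Knockout 1 again lay within the wild types. The median was 0.24 without knockout 1 and 0.08 without knockout 3. In 5 members the groups did not overlap, namely Ifit3, Usp18, Ifih1, Ifit2 and Ddx58, beside 2.85% of all probe sets. Ifit3, which helps to retain viral RNA, was at 9.72, 9.80 and 10.26 against 9.40, 9.63 and 9.62, a change of 0.38 (SE 0.15). Usp18, a negative regulator of interferon signalling, was at 9.84, 10.03 and 10.07 against 9.70, 9.78 and 9.52, a change of 0.32 (SE 0.09). Rtp4 and Oasl2 had larger changes, 0.46 and 0.39, but overlapped because of knockout 1, at 9.33 and 9.93. The antiviral Mx1 and Oas2 did not share the direction, at -0.03 and -0.08.

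MHC class I heavy chains present peptides at the cell surface, and several of their genes were higher in all 3 knockouts. Of 20 measured members 16 had a change above 0 with a median of 0.13, and in 8 members the groups did not overlap, all with the knockouts higher, beside 2.85% of all probe sets. The list means were 10.55, 10.71 and 10.79 in the knockouts and 10.42, 10.47 and 10.49 in the wild types, with no overlap. Knockout 1 lay above every wild type in 8 members, knockout 2 in 14 and knockout 3 in 16.

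The non-classical class I gene H2-Q7 was at 9.35, 9.71 and 10.17 in the knockouts and 8.88, 8.94 and 8.94 in the wild types, 1.77-fold higher with a log2 change of 0.82 (SE 0.19). H2-Q6 was at 10.40, 10.44 and 10.77 against 9.82, 9.75 and 10.01, 1.60-fold higher with a change of 0.68 (SE 0.12). H2-Q4 was at 10.33, 10.48 and 10.72 against 9.86, 10.12 and 10.12, a change of 0.47 (SE 0.12). Within each of these genes knockout 3 was the highest array and the 3 wild types were the lowest 3. Of the classical heavy chains, H2-K1 was at 11.65, 11.75 and 11.88 against 11.19, 11.42 and 11.44, 1.33-fold higher with a change of 0.41 (SE 0.09). H2-D1 was at 12.35, 12.49 and 12.56 against 12.04, 12.30 and 12.35, where knockout 1 and wild type 3 shared the same rounded level. The heavy chain genes H2-Q10 and H2-M3 overlapped, at -0.00 and 0.02. The light chain gene B2m, H2-T23 and H2-T10 also separated, with changes of 0.13, 0.24 and 0.12, and H2-Q8, which was outside the list, was at 0.38.

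Among the loading genes none separated the groups. Tap1, a subunit of the peptide transporter, was at 9.50, 10.21 and 10.34 in the knockouts and 9.52, 9.46 and 9.41 in the wild types. The immunoproteasome genes Psmb9 and Psmb8 had changes of 0.28 and 0.24 with knockout 1 at or below the level of 1 or more wild types. Tap2, Psmb10, Tapbp and Erap1 had smaller changes, 0.07, 0.07, 0.08 and 0.14. The general chaperones of the endoplasmic reticulum on the list, Canx, Calr and Pdia3, were at -0.03, -0.03 and -0.06.

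H2-Q genes are near copies, and the promoters of H2-Q6 (chr17:35424700-35424849, plus strand) and H2-Q7 (chr17:35439005-35439154, plus strand) show how alike they are. Shifted by 39 bases against each other without gaps, they were identical at 151 of 211 positions (71.6%) of the window. An alignment with gaps, which could match more positions, was not made. Neither promoter held the response element in the exact form searched, and other forms of the element were not searched. The 150 bases before each start are shown without capitals because no match fell in them.
H2-Q6: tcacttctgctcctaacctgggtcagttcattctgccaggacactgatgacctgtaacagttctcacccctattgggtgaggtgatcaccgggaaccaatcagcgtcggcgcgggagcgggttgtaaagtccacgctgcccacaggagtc
H2-Q7: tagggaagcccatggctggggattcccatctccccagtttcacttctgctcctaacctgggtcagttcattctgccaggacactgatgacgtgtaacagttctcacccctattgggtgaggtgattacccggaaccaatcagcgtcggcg
Signal can be split between such copies on the array, so the separate values of H2-Q4, H2-Q6, H2-Q7 and H2-Q8 are uncertain as measures of 1 gene each. The promoter letters do not show whether probes are shared, and probe sequences were not compared.

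**Figure D3:**
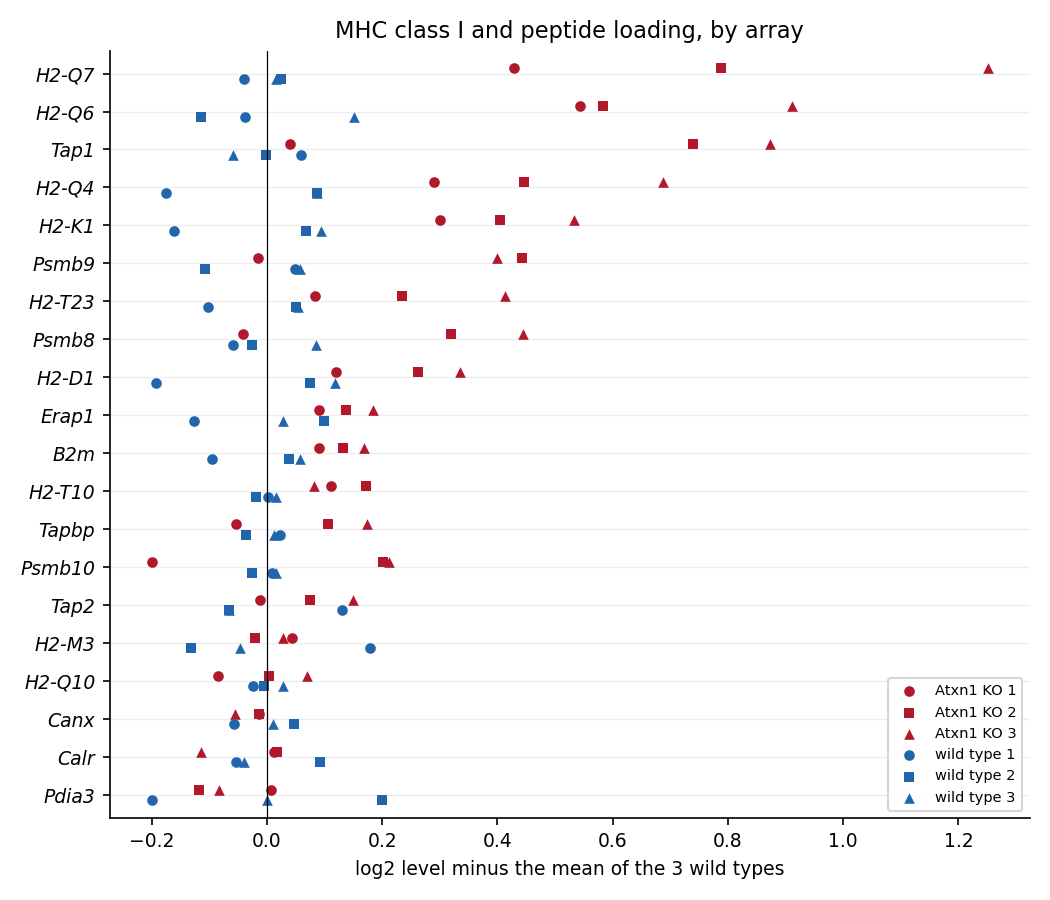
Log2 level of each of the 20 measured genes of MHC class I and peptide loading on each array, minus the mean of the 3 wild types for that gene (x axis, log2 units). All 3 knockouts (red) lie right of the wild types (blue) in 8 genes, led by H2-Q7 and H2-Q6, whereas in Tap1, Psmb9 and Psmb8 only knockouts 2 and 3 do.

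The interferon values were set beside other features of the arrays. Knockouts 2 and 3 were also the knockouts with high Xist, and wild type 3, with Xist as high, had a GTPase mean of 9.12, the level of the other wild types. With Xist as a covariate the median of the GTPases was 0.37 and that of MHC class I 0.12. The 19 measured markers of T and NK cells, which make interferon gamma, had list means of 7.96 to 8.04 in the knockouts and 7.86 to 8.03 in the wild types, and 13 of 19 were above 0 with a median of 0.02, which was 0.09 without wild type 1 and -0.00 without wild type 3. The changes of these markers ran from -0.04 to 0.30, and 1 of 19, Cd3e, separated the groups, beside 2.85% of all probe sets. In bulk lung, a change in the number of cells of a type and a change in RNA per cell cannot be told apart. The part of these features in the interferon values was not tested.

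Beside the separate comparison of the Atxn1l knockouts with their own wild types, the same lists had medians above 0, where 2.76% of all probe sets were higher and 2.56% lower without overlap. The median changes there were 0.48 for the GTPases, 0.36 for the interferon-stimulated genes and 0.19 for MHC class I, with 11 of 11, 20 of 20 and 18 of 20 members above 0. The share of all probe sets above 0 there is not given here. Such a lean was not particular to interferon genes, as 22 of 22 neutrophil and 23 of 23 cell cycle genes were above 0 there. Other lists went the other way, with 5 of 14 alveolar type 2 and 6 of 20 endothelial markers above 0. H2-Q7 was at 1.42 there and Gbp6 at 1.12. None of these genes was called in that comparison, and the test of the difference between the knockouts in limma called no member of the 3 lists, with a smallest adjusted p of 0.9996. Over all 21212 probe sets the changes of the 2 knockouts, which share no control array, had a Pearson correlation of 0.07 and a Spearman correlation of -0.00 across genes, which are not independent replicates.

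Among probe sets with 1 gene symbol, the lowest unadjusted p belonged to Fgfbp1, which is outside the interferon lists. Fgfbp1 is a secreted carrier that releases fibroblast growth factors from the matrix. It was at 8.84, 8.82 and 8.88 in the knockouts and 8.51, 8.38 and 8.38 in the wild types, 1.34-fold higher with a log2 change of 0.42 (SE 0.06) and a 95% interval from 0.29 to 0.56. Both groups were tight and lay far apart relative to their spread, yet the adjusted p was 0.9999. With array weights estimated by limma, which gave wild type 1 a weight of 0.16 and wild type 3 a weight of 6.38, Fgfbp1 was the 1 probe set called, at an adjusted p of 0.0234. In that weighted limma fit 2384 probe sets had an unadjusted p below 0.05 with the knockouts higher and 1747 with them lower. Without weights these counts were 159 and 99. The change of Fgfbp1 in the Atxn1l knockouts was 0.12, and the difference between the 2 knockouts, 0.31, was not called (adjusted p = 0.9996, limma).

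The genes Flvcr2, Cybrd1 and Slc39a2 were among the 10 genes of smallest p with the higher mean in the knockouts. Flvcr2, a membrane transporter of the FLVCR family, was at 10.88, 10.94 and 10.91 in the knockouts and 10.58, 10.64 and 10.57 in the wild types, a change of 0.31 (SE 0.05). Cybrd1, a ferric reductase, was at 10.03, 9.94 and 10.14 against 9.75, 9.58 and 9.71, a change of 0.36 (SE 0.07). Slc39a2, a zinc importer, was at 9.67, 9.91 and 9.56 against 9.34, 9.27 and 9.29, a change of 0.41 (SE 0.09). The groups were separate in all 3 genes. The list of iron handling genes as a whole did not share this, with 10 of 15 above 0, a median of 0.02 that was -0.00 without knockout 3, and the transferrin receptor Tfrc, the ferritin gene Fth1 and the iron exporter Slc40a1 at 0.10, 0.00 and -0.06. Hamp, the iron hormone hepcidin, separated downward at -0.23, mainly through wild type 1 at 6.64.

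Further genes that stood higher in every knockout came from varied functions. Pla2g1b, a secreted phospholipase A2, was at 10.77, 10.89 and 10.83 in the knockouts and 10.62, 10.58 and 10.57 in the wild types. Acoxl, an acyl-CoA oxidase-like gene, was at 10.72, 10.58 and 10.69 against 10.35, 10.32 and 9.91, a change of 0.47 (SE 0.12). Inmt, a methyltransferase of lung fibroblasts, was at 10.30, 10.33 and 10.55 against 9.64 to 10.15, a change of 0.46 (SE 0.14). In Inmt, knockout 1 exceeded wild type 3 by little, while in Acoxl the wild types were spread by wild type 3. Acoxl was at -0.37 in the Atxn1l knockouts, and the difference between the knockouts, 0.84 (SE 0.17), had an adjusted p of 0.865. Slc17a2, of the sodium and phosphate transporter family, was at 9.50, 9.62 and 10.27 against 8.61, 9.09 and 9.42, a change of 0.76 (SE 0.26) with wide spread in both groups.

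Fewer genes stood lower in every knockout, and only 1 of them passed a size of 0.5. Aoc1, the diamine oxidase that breaks down histamine, was the largest, at 8.13, 8.25 and 8.24 in the knockouts and 8.60, 8.53 and 9.14 in the wild types, a change of -0.55 (SE 0.16). Kbtbd6, a substrate adaptor of a cullin ubiquitin ligase, was at 8.59, 8.58 and 8.55 against 8.74, 8.87 and 8.73, a change of -0.20 (SE 0.06). Dlk1, an imprinted gene of fetal and growing tissues, was at 11.04, 10.87 and 11.15 against 11.51, 11.29 and 11.22, a change of -0.31 (SE 0.10), and was at -0.23 in the Atxn1l knockouts. Knockout 3 and wild type 3 came close in Dlk1, whereas Aoc1 and Kbtbd6 left a clear gap. The remaining lower genes of smallest p were Rpl21, which encodes a ribosomal protein, at -0.23, Ssr1 at -0.28, the transcript 4930444G20Rik at -0.16, the odorant receptor genes Olfr744, Olfr320 and Olfr325 at -0.26, -0.30 and -0.22, and the pheromone receptor gene Vmn2r61 at -0.21. In 3 of those 4 receptor genes wild type 1 was the highest array.

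The neighbours of Atxn1 were read as well, of which none was called. On chromosome 13, 140 measured genes lay within 10 Mb of Atxn1 in the RefSeq annotation of GRCm38.p6, which was used only for their order and distance. Of these, 7 (5.0%) did not overlap between the groups, beside 4.75% of all probe sets, 5 (3.57%) had an unadjusted p below 0.05, beside 1.22%, 73 had a change above 0, and the median was 0.00. Cap2, a regulator of actin that lies 3 measured genes from Atxn1, was at 10.39, 10.43 and 10.64 in the knockouts and 10.22, 9.89 and 10.15 in the wild types, a change of 0.40 (SE 0.11). Jarid2, a partner of Polycomb repressive complexes that lies 3 measured genes away on the other side, was at 11.08, 11.00 and 11.11 against 10.85, 10.93 and 10.88, a change of 0.18 (SE 0.05). The nearest genes on each side, Mylip and Stmnd1, were at 0.10 and -0.02 and overlapped. Farther out, Dsp, Gfod1, Mcur1 and Tpmt were higher in every knockout by 0.22, 0.18, 0.09 and 0.08. Ssr1, a subunit of the complex at the protein translocation channel, was the 1 lower gene, at 12.71, 12.42 and 12.49 against 12.75, 12.84 and 12.89. Cap2 was at 0.21 and Jarid2 at -0.06 in the Atxn1l knockouts, and neither difference between the knockouts was called.

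**Figure D4:**
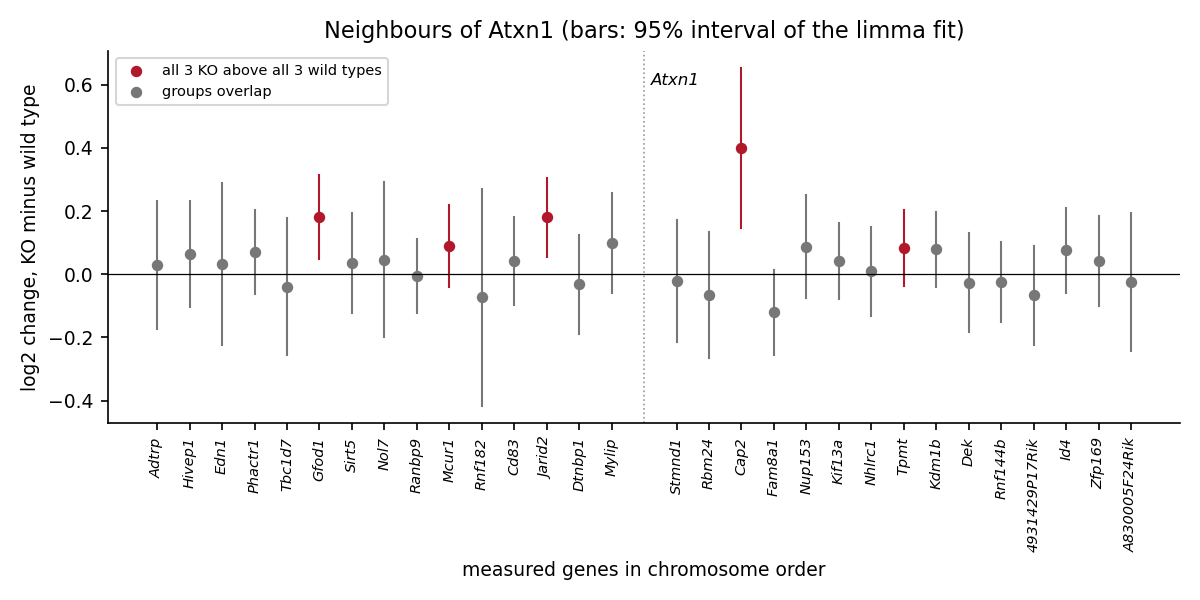
Fitted log2 change (points, y axis) with its 95% interval (bars) for the 15 measured genes on each side of Atxn1, in chromosome order along the x axis, with the place of Atxn1 dotted. Red marks the 5 genes whose 3 knockouts all lie above the 3 wild types, of which Cap2, at 0.40, stands highest.

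Genes of septation and of the alveolar cells differed little in the mean, and some separated the groups. Among Hedgehog, PDGF and FGF genes 18 of 20 had a change above 0 and the median was 0.04, which was 0.09 without wild type 1 and 0.02 without wild type 3. Shh, the epithelial Hedgehog ligand, was at 10.69, 10.71 and 10.64 in the knockouts and 10.60, 10.54 and 10.52 in the wild types, a change of 0.13 (SE 0.05). Its receptor Ptch1, itself a Hedgehog target, was at 12.19, 12.20 and 12.16 against 12.10, 12.14 and 12.03, a change of 0.09. These were the 2 of 20 members that separated the groups, beside 2.85% of all probe sets. Gli1, a further target, was at 0.03, Pdgfa at 0.07 and Fgf10 at 0.10, all overlapping.

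In the basement membrane 16 of 18 genes had a change above 0 with a median of 0.06, and Nid2, Lamc1 and Lamb1, which encode a nidogen and laminin chains, separated at 0.11, 0.07 and 0.06, beside 2.85% of all probe sets. Without wild type 3 the median was 0.03. Hopx, a transcriptional cofactor that marks alveolar type 1 cells, was at 12.35, 12.38 and 12.31 in the knockouts and 12.15, 12.26 and 12.24 in the wild types, a change of 0.13 (SE 0.05). Of the 13 type 1 markers 12 had a change above 0, with a median of 0.05, and Ager and Aqp5 overlapped at 0.05 each. Surfactant and other type 2 genes had 11 of 14 members above 0 and a median of 0.01, which was -0.02 with array weights, -0.01 with the Xist covariate and without wild type 1, and -0.00 without knockout 3. Sftpc was at 14.29, 14.29 and 14.31 against 14.22, 14.42 and 14.34, well within the spread of the wild types. The endothelial markers had a median of 0.04 and the smooth muscle and myofibroblast markers 0.04, with no separated member in either list. Without wild type 2 the former was 0.05, and without wild type 3 the latter was 0.01.

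Of the matrix metalloproteinases 2 members separated the groups, both higher in the knockouts, beside 2.85% of all probe sets. Mmp12, the macrophage elastase, was at 8.62, 8.56 and 8.82 in the knockouts and 8.45, 8.37 and 8.27 in the wild types, a change of 0.30 (SE 0.08), and it was at 0.27 in the Atxn1l knockouts. Mmp14, a membrane-bound activator of other metalloproteinases, separated by 0.03 in the mean. Of the 17 measured members 7 had a change above 0, with a median of -0.04 that was 0.01 without wild type 1. The neutrophil enzymes Mmp8 and Mmp9 were at -0.37 and -0.43, and both rested on wild type 3, at 10.94 and 10.70 against no more than 9.10 on any other array.

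Neutrophil genes were high on wild type 3, and the direction of the list turned without it. Of 22 measured neutrophil and granule genes 1 had a change above 0, with a median of -0.21, but the list mean was 10.17 on wild type 3 and 8.83 to 9.15 on the other 5 arrays. S100a8, an abundant calcium-binding protein of neutrophils, was at 9.59, 9.75 and 10.21 in the knockouts and 9.35, 9.32 and 12.33 in the wild types. Cxcr2, their chemokine receptor, was at 8.01, 8.29 and 8.35 against 7.79, 8.01 and 10.86. Without wild type 1 or wild type 2 the median of the list was -0.46 or -0.44, and without wild type 3 it was 0.08, the opposite direction. Wild type 3 was the highest array for 16 of the 22 members.

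Airway secretory genes shared that dependence in part. Of 11 measured club cell and secretory genes 1 had a change above 0, with a median of -0.11 that was -0.07 without wild type 3, -0.06 without knockout 1 and -0.21 without knockout 2. Scgb3a1, a secretoglobin of large airways, was at 9.06, 10.03 and 10.21 in the knockouts and 10.79, 9.40 and 12.25 in the wild types. Reg3g, an antibacterial lectin, was at 6.88, 7.78 and 7.90 against 7.88, 7.38 and 10.23. Both peaked on wild type 3, while the club cell marker Scgb1a1 was at -0.03 (SE 0.08).

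Heart muscle genes varied between arrays within both groups. The list means of 14 heart markers were 9.02, 9.13 and 9.55 in the knockouts and 9.75, 8.78 and 9.70 in the wild types. Myl7, an atrial myosin light chain that is also made in the muscle sleeves of pulmonary veins, was at 9.48, 9.77 and 10.57 against 11.14, 8.95 and 11.08. The groups overlapped fully, the median of -0.18 was -0.52 without wild type 2 and -0.03 without wild type 3 or wild type 1, -0.06 without knockout 1 and -0.35 without knockout 3, and 3 of 14 markers had a change above 0.

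Red cell genes leaned the other way. Of 11 measured erythroid genes 9 had a change above 0, with a median of 0.17, which was 0.07 without wild type 3. Slc4a1, the anion exchanger of red cells, was at 11.26, 11.52 and 11.50 in the knockouts and 11.22, 11.16 and 10.87 in the wild types, a change of 0.35 (SE 0.11). Epb42 and Sptb, of the red cell membrane skeleton, also separated, at 0.28 and 0.07, which makes 3 of 11 members beside 2.85% of all probe sets. Alas2, which starts haem synthesis in red cells, overlapped at 12.48, 12.55 and 12.57 against 12.42, 12.51 and 12.16.

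**Figure D5:**
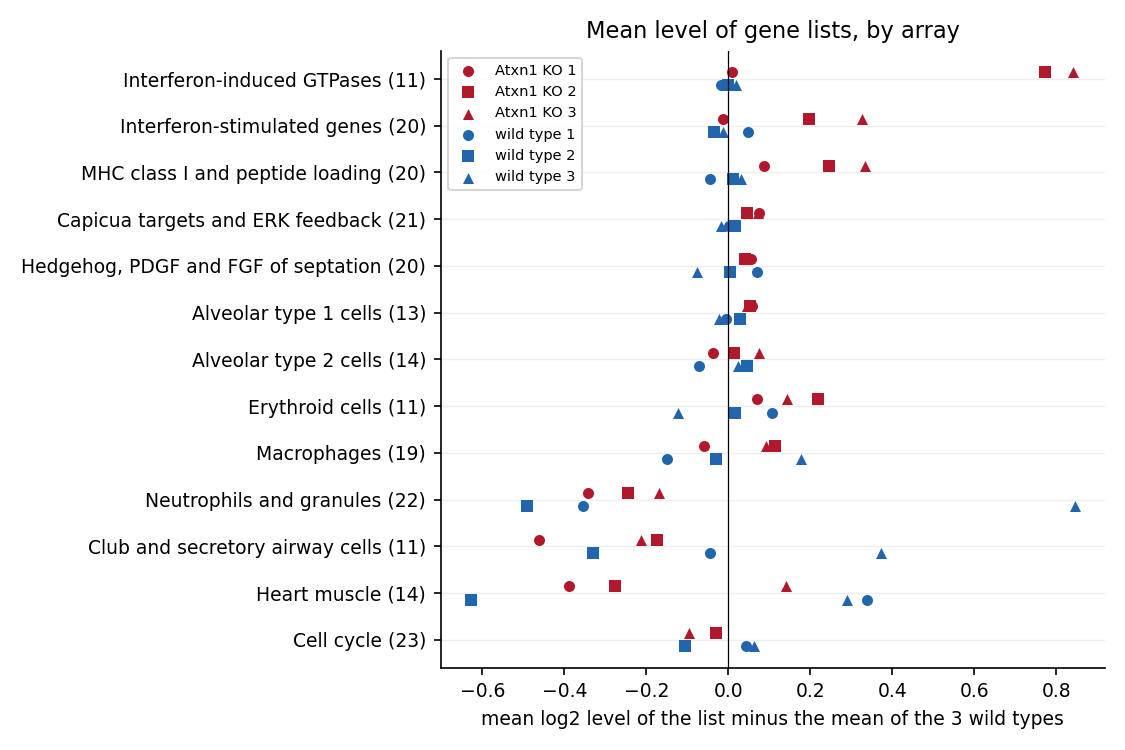
Mean log2 level of 13 gene lists on each array, minus the mean of the 3 wild types (x axis, log2 units; number of measured genes in parentheses). Knockouts 2 and 3 stand right in the interferon lists, wild type 3 stands far right in the neutrophil list, and the heart muscle list spreads over both groups.

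Macrophage genes overlapped between the groups. Of 19 measured markers 14 had a change above 0, with a median of 0.04 that was -0.00 without wild type 1 or wild type 2 and was 0.11 without wild type 3. Csf1r, the receptor for the growth factor of macrophages, was the 1 member of 19 that separated, beside 2.85% of all probe sets. It was at 11.01, 11.12 and 11.08 against 10.76, 10.96 and 10.99. Chil3, a chitinase-like protein of alveolar macrophages, was at 7.55, 8.41 and 7.67 in the knockouts and 6.72, 7.39 and 7.99 in the wild types, a change of 0.51 (SE 0.35) that was 0.19 without wild type 1 and 0.82 without wild type 3. Cell cycle genes had a change above 0 in 1 of 23 members, but by little, with a median of -0.05, or -0.11 without wild type 2 and -0.02 without wild type 3, and list means of 10.70 to 10.76 against 10.69 to 10.85. Mki67 was at 12.12, 12.02 and 12.05 against 12.12, 12.02 and 12.19, and no member separated.

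The 9 probe sets (0.0424%) called in the Atxn1l knockouts were read on the Atxn1 arrays, and each overlapped between Atxn1 knockouts and wild types. Chil3, at 1.46 there, had the largest change of these here. Hal, a histidine-degrading enzyme, was at 0.59 there and -0.01 (SE 0.07) here, and Macc1, a regulator of Met, was at -0.63 there and -0.09 here. Cd209a, a lectin of dendritic cells, was at -0.58 there and -0.10 here. Msr1, a macrophage scavenger receptor, and Pla2g7, which inactivates platelet-activating factor, were at 0.69 and 0.91 there and at -0.14 and -0.04 here, but 0.19 and 0.26 here without wild type 3. Chst4, a sulfotransferase, was at -0.59 there and 0.07 (SE 0.07) here. In the test of the difference itself 2 probe sets (0.00943%) were called, Atxn1l and Chst4, and 688 (3.24%) had an unadjusted p below 0.05. The others were not shown to differ between the knockouts, with adjusted p of 0.549 for Hal and 0.865 for Etv4 and Macc1. With array weights Hal and Acoxl were called in that test as well.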

How the data were processed

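Levels are the log2 values the authors deposited, made by RMA over these 6 arrays apart from the other 8, per the series' design text; RMA and limma are named in the submitters' processing notes, versions and probe-set definition not given in the sources used here. No depth exists for arrays, so the number of arrays limits precision. limma 3.58.1 in R 4.3.3 (lmFit, eBayes) compared the groups, with Benjamini-Hochberg adjustment over 21212 probe sets, and was checked on simulated data. The difference between knockouts used all 14 arrays and 4 group means. A platform table gave 1 symbol for 18786 probe sets, several for 6 and none for 2420, and unnamed ones were not described. Named genes were Atxn1, Atxn1l and Cic, the 10 of smallest p in each direction, the 10 largest separated changes, the leading members of lists, the genes called in the Atxn1l knockouts and neighbours of Atxn1; other list members were named to complete a list after their values were seen. Gene lists and members were chosen with earlier results of these data known, and 828 of 896 list memberships were measured. Promoters come from RefSeq (GRCm38.p6). Alternatives changed the prior, weights, filter, normalization, covariates, arrays and threshold. As nothing says the arrays hold 1 mouse each, p-values measure the spread between these samples.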

Additional observations from a re-analysis of the deposited data

Results flagged for a closer look

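The effects of the 2 knockouts differed for 2 probe sets in limma's test of the difference. For Atxn1l the Atxn1 effect minus the Atxn1l effect was 2.60 on the log2 scale (SE 0.12, adjusted p = 7.01e-08), with changes of 0.02 in the Atxn1 knockouts and -2.58 in the Atxn1l knockouts. This is the gene deleted in the second line. For Chst4 the difference was 0.67 (SE 0.08, adjusted p = 0.0166), with 0.07 in the Atxn1 knockouts and -0.59 in the Atxn1l knockouts. The count of 2 was 1 on leaving out each of Atxn1 knockouts 1, 2 and 3, Atxn1l knockouts 1 and 3, or wild types 1, 3 and 4 of the Atxn1l set, and 2 without each of the other 6 arrays.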

How the results depend on the processing

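The count of 0 called probe sets for the Atxn1 knockout was also obtained under every alternative run except array weights (1, Fgfbp1 with a log2 change of 0.47) and an unadjusted p under 0.01 (44). Leaving out each array gave 0 to 0, with 153 to 936 probe sets at an unadjusted p under 0.05, 936 without wild type 1 and 911 without wild type 2. The count of 2 for the difference between the knockouts was 1 with a mean-variance trend, 4 with array weights (Hal and Acoxl added) and 1 to 2 on leaving out an array. Nothing states whether replicate numbers pair the samples. Same-numbered deviations from the group means correlated at 0.00, -0.42 and 0.42. These values cannot settle the pairing, because deviations from the mean of so few arrays are tied to each other. With the replicate block the counts were 0 and 1. Atxn1 turned to -0.0063 with cyclic loess, -0.0068 with joint quantile normalization and ran from -0.035 to 0.074 on leaving out an array, below 0 without knockout 3, wild type 1 or wild type 3. Atxn1l turned to -0.0016 with joint quantile normalization, -0.0018 with the Xist covariate and ran from -0.0074 to 0.042 on leaving out an array, below 0 without knockout 3 or wild type 2. The share of probe sets above 0 was 57.9% without wild type 1. Of the remaining values for genes, 5311 stayed within the replicate spread or on their side of the threshold and 90 moved beyond the spread; for list medians these were 1008 and 34.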

Other observations

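A few further lists held separated members, all uncalled by limma. Of 21 measured respiratory chain genes 4 were lower in every knockout and none was higher, beside 1.9% of all probe sets that were lower. Among them Atp5j, a subunit of the ATP synthase, was at 13.32, 13.27 and 13.27 in the knockouts and 13.37, 13.39 and 13.33 in the wild types. The list median was -0.02, or 0.01 without wild type 3. Cry2, a repressor of the circadian clock, was at 10.26, 10.27 and 10.49 against 10.19, 10.22 and 10.21, in a clock list with 14 of 17 members above 0 and a median of 0.06 that was 0.01 without knockout 3 and 0.02 without wild type 3. Grem1, an antagonist of BMP signals, was at 8.51, 8.52 and 8.40 against 8.89, 8.60 and 8.57, the 1 separated member of 20 TGF-beta and BMP genes, beside the 1.9% of all probe sets that were lower. Cd3e, a T cell receptor subunit, was at 9.59, 9.44 and 9.55 against 9.41, 9.40 and 9.24, the 1 separated member of 19 T and NK genes. Catalase (Cat) was at 12.88, 12.96 and 12.88 against 12.86, 12.84 and 12.80, 1 of 2 separated members of 15 oxidative stress genes. Cry2 was the 1 separated member of its 17. These 3 counts stand beside the 2.85% of all probe sets that were higher.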
